A study of Mus musculus with 2 samples.

Results

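The genes described here encode the translation initiation factors (eIF) and elongation factors (eEF) of the cytosol, with the kinases, repressors and methyltransferases that carry a factor's name. They were chosen by a rule on names, set with earlier results of these data known. It takes every gene with a transcript annotated as protein_coding whose symbol is Eif or Eef followed by a digit. Symbols starting with Eif2s3 and pseudogene symbols containing -ps are left out. The rule found 66 genes among 55536 in the gene table, of which 21888 have a protein_coding transcript outside the mitochondrial genome. The third subunit of eIF2 is therefore not covered. The study sequenced total RNA of a calf muscle, the gastrocnemius, from female B6Cast F1 mice, the first generation of a cross between the C57BL/6 and CAST strains. A text label gives their age as 18 to 20 months, while the separate age field is not filled in. The 2 libraries are biological replicates 1 and 2 of 1 group, each from 300 ng of RNA with ERCC spike-ins. The labels name 2 tissue samples and 1 shared donor entry, which names the strain, so the spread between the libraries may be partly technical.

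Initiation factors bring the initiator transfer RNA and the small ribosomal subunit to the capped end of a messenger RNA, scan to the start codon and join the large subunit. Elongation factors then deliver each aminoacyl transfer RNA (eEF1) and move the ribosome along by a codon (eEF2). In muscle, both steps answer to feeding, contraction and stress, mainly through mTORC1, which phosphorylates the eIF4E repressors, and through kinases of eIF2 and eEF2.

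Expected counts over genes summed to 38654555 in replicate 1 and 43722892 in replicate 2. All 8 muscle fibre markers were detected, with medians of 13636 and 12015 TPM, and 6 markers of other organs summed to 0.17 and 0.18 TPM. Of 4 T cell markers, 3 were at 0 in both libraries. The libraries differed in fibre type: all 8 slow fibre markers were at least 2-fold higher in replicate 2, and their summed level was 451 TPM in replicate 1 and 2426 TPM in replicate 2. All 4 satellite cell markers were lower in replicate 2, with a median log2 ratio of -0.83, and 5 of 6 endothelial markers were lower, with a median of -0.44. In the other direction, 5 of 5 adipocyte markers were higher in replicate 2, with a median of 0.43, and 5 of 6 fibro-adipogenic markers were, with a median of 0.17 and with Col1a1 and Col3a1 3.25-fold and 3.66-fold higher. With 1 group there is no comparison between conditions. Levels are in TPM, a transcript's share of all transcripts, which is per length and allows genes to be compared within a library. Unless stated otherwise TPM is that of RSEM, and paired values are replicate 1 and replicate 2 in that order. In bulk RNA, fewer cells of a type and less RNA per cell cannot be told apart.

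The factor genes were broadly expressed and their RNA was concentrated in a few members. Of the 66, 61 (92.4%) reached 1 TPM in both libraries, against 45.6% of all nuclear protein-coding genes. The median of the detected members was 38.8 TPM, against 8.55 TPM over detected nuclear protein-coding genes. Together they took 1.25% and 1.14% of nuclear protein-coding TPM (mean 1.20 ± 0.0815, SD, n = 2) while making up 0.302% of those genes. Means reached 100 TPM in 12 members and 500 TPM in 3: Eef1a2, Eif1 and Eef2. The 4 most abundant members supplied 45.5% and 47.8% of the members' summed TPM.

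**Figure D1:**
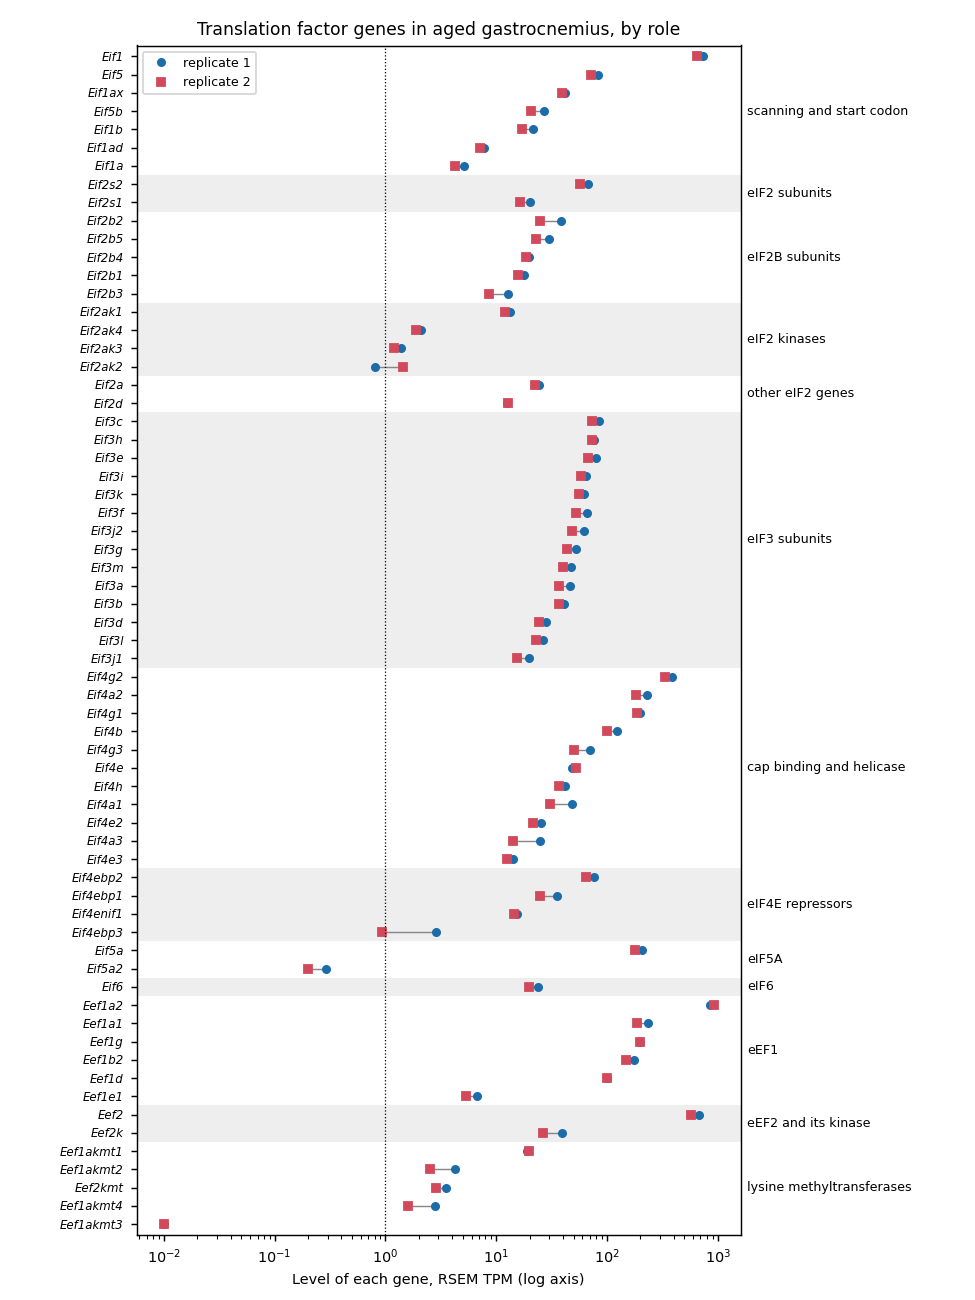
RSEM TPM of 65 factor genes in replicate 1 (circles) and replicate 2 (squares) on a log axis, grouped by role and ordered by mean; the dotted line is 1 TPM, and Eif4e1b, at 0 in both libraries, is not drawn. Eef1a2, Eif1 and Eef2 lie above 500 TPM in both libraries, while Eef1akmt3 and Eif5a2 lie below 1 TPM in both.

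The 6 genes of eEF1 held the largest share of the factor RNA of any role, 26.8% and 30.0%. Eef1a2 and Eef1a1 encode alternative forms of eEF1A, the GTPase that delivers aminoacyl transfer RNA; Eef1a2 is the form known from adult muscle, heart and neurons, and Eef1a1 the form of most other cells. Eef1a2 stood at 846 and 918 TPM, rank 40 of all nuclear protein-coding genes. Eef1a1 stood at 234 and 186 TPM. Eef1a2 therefore took 78.3% and 83.2% of the pair's TPM, and 76.6% and 82.6% by the second quantifier, kallisto.

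The coding sequences of the pair were identical at 80.0% of 1392 aligned positions, and their longest shared run of bases was 23, shorter than the 31-base words that were searched for shared sequence. The first 120 coding bases are shown because they let a reader see how differences are spread between genes whose reads must be told apart; capitals mark the 18 positions at which the pair differs. Eef1a1 lies at chr9:78478449-78489151 on the minus strand and Eef1a2 at chr2:181147653-181157014 on the minus strand (mm10), and both sequences run 5′ to 3′ in the sense direction.
Eef1a1: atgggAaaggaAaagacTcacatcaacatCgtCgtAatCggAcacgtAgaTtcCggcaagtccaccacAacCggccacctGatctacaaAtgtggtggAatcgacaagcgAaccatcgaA
Eef1a2: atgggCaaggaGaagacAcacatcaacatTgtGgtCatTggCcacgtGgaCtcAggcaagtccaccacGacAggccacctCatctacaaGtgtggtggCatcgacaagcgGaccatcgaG
The differences recur along the whole stretch. Eef1a1 shares more with other genes than with Eef1a2: 26.7% of its 100-base windows also occur elsewhere, mainly in processed pseudogenes, which are copies of a messenger RNA inserted in the genome. The pseudogene with the most shared windows, Gm13456, held 54.9 and 39.9 expected counts, against 9479 and 8039 for Eef1a1. AC133509.1, which shares 3.78% of the windows, held 143 and 95.7. Together the 9 pseudogenes that share a window held 218 and 156.

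The eEF1A forms differed in opposite directions between the libraries. On counts scaled by TMM, the log2 ratio of replicate 2 over replicate 1 was 0.27 for Eef1a2 (95% counting interval 0.25 to 0.28) and -0.27 for Eef1a1 (-0.31 to -0.22). Both signs were the same under 5 scalings, although Eef1a2 was only 0.05 when scaled by spike-in totals. The ratio of Eef1a2 to Eef1a1 TPM was 3.61 and 4.95. The slow fibre markers moved the same way as Eef1a2 (8 of 8 higher in replicate 2, summed level 451 and 2426 TPM), and their part in this difference was not tested.

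The exchange factor of eEF1A, eEF1B, consists of the catalytic subunits Eef1b2 and Eef1d and the scaffold subunit Eef1g. Eef1g stood at 201 and 198 TPM, Eef1b2 at 177 and 150 TPM, and Eef1d at 100.4 and 100.2 TPM. Thus all 3 were present at a fraction of the summed eEF1A level, which was 6.09 and 7.36 times that of Eef1b2. Of the windows of Eef1g, 49.4% occur elsewhere, mostly in the pseudogene Gm4366 at 121 and 249 expected counts. Gm5525, which shares 4.53% of the windows, had 559 and 674, against 9613 and 10503 for Eef1g, so the level of Eef1g is less certain. Eef1e1, a subunit of the aminoacyl transfer RNA synthetase complex that is named after eEF1, was far lower at 6.76 and 5.32 TPM.

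Eef2, the translocase, stood at 686 and 578 TPM, rank 58, with 99.4% of its TPM in 1 transcript. Of its 31-base words, 23.2% also occur in 5 pseudogenes. One of these, Gm13050, shares 0.0669% of the 100-base windows and held 1319.5 and 1243 expected counts, against 59064 and 56470 for Eef2. The inhibitory kinase of eEF2, Eef2k, stood at 39.4 and 26.5 TPM. The ratio of Eef2 to Eef2k was 17.4 in replicate 1 and 21.8 in replicate 2. Both genes were lower in replicate 2, with log2 ratios of -0.09 and -0.23, and neither counting interval included 0.

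The methyltransferases that modify lysines of eEF1A and eEF2 were mostly scarce. Eef1akmt1 led with 19.1 and 19.8 TPM. Eef1akmt2 (4.25 and 2.52 TPM), Eef2kmt (3.51 and 2.85 TPM) and Eef1akmt4 (2.78 and 1.60 TPM) were above 1 TPM in both libraries. Eef1akmt4 shares 38.3% of its 100-base windows with Gm49333, which had 0 and 5.64 expected counts. Eef1akmt3 had 1 count in each library, or 0.01 TPM, which is within the 3 counts that a count of 0 allows.

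Among the factors that scan for and select the start codon, Eif1 stood apart. It encodes the small protein that keeps the scanning ribosome open until the start codon is found, and stood at 745 and 653 TPM, rank 51. Its paralog Eif1b was at 21.3 and 17.3 TPM, so Eif1 took 97.2% and 97.4% of the pair. Eif5, the GTPase activator that answers start codon recognition, was at 83.2 and 72.1 TPM. Eif5b, which joins the subunits, was at 26.9 and 20.5 TPM.

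eIF1A, the partner of eIF1 on the small subunit, comes from Eif1ax on the X chromosome and Eif1a on chromosome 18. Eif1ax stood at 41.8 and 39.5 TPM and Eif1a at 5.11 and 4.21 TPM. Eif1ax took 89.1% and 90.4% of the pair by RSEM and 79.3% and 81.0% by kallisto, which put it at 27.3 and 24.3 TPM. The related gene Eif1ad was at 7.83 and 7.21 TPM.

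eIF2 carries the initiator transfer RNA, and phosphorylation of its alpha subunit slows initiation. Eif2s1, the alpha subunit, was at 20.4 and 16.3 TPM and Eif2s2, the beta subunit, at 68.0 and 57.5 TPM. Although the subunits work in a complex, their RNA levels differed 3.34-fold and 3.53-fold, and 6.21-fold and 5.65-fold by kallisto. The exchange factor eIF2B, which reloads eIF2 with GTP, had 5 subunit genes between 8.70 and 38.5 TPM. Eif2b2 was highest (38.5 and 24.9 TPM), followed by the catalytic subunit gene Eif2b5 (30.1 and 23.1 TPM) and Eif2b4 (19.8 and 18.8 TPM). Eif2b1 (18.0 and 15.9 TPM) and Eif2b3 (12.8 and 8.70 TPM) were the lowest by RSEM. That order depends on the tool, since kallisto placed Eif2b1 highest at 51.2 and 43.9 TPM and Eif2b2 at 30.4 and 19.8 TPM.

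Of the 4 kinases of eIF2 alpha, Eif2ak1, known as HRI and sensitive to haem and mitochondrial stress, led with 13.3 and 12.0 TPM. It took 75.6% and 72.6% of the kinases' TPM. Eif2ak4, or GCN2, the sensor of amino acid shortage, was at 2.10 and 1.90 TPM. Eif2ak3, or PERK, the sensor of the endoplasmic reticulum, was at 1.38 and 1.19 TPM. Eif2ak2, or PKR, activated by double-stranded RNA, was at 0.81 and 1.45 TPM, so that by RSEM it passed 1 TPM in replicate 2 only. It was at 1.85 and 2.33 TPM by kallisto, and at 0.69 and 0.98 TPM over protein_coding transcripts of RSEM. With 86 and 145 counts its log2 ratio of 0.71 (counting interval 0.33 to 1.13) was the highest of any member, and it stayed above 0 under all 5 scalings; with kallisto counts it was 0.45. Eif2a and Eif2d, which encode other proteins that can place the initiator transfer RNA, were at 24.4 and 22.2 TPM and at 12.4 and 12.7 TPM.

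The 14 genes of eIF3, the large scaffold on the small subunit, were all detected. The 12 subunits other than J spanned 3.23-fold and 3.19-fold from lowest to highest, and 4.09-fold and 3.85-fold by kallisto. Eif3c (84.7 and 73.1 TPM), Eif3h (77.2 and 73.6 TPM) and Eif3e (80.5 and 67.1 TPM) were highest. Eif3i, Eif3k and Eif3f followed at means of 61.2, 59.3 and 59.1 TPM, then Eif3g (48.3), Eif3m (43.8), Eif3a (41.7) and Eif3b (38.8). Eif3d at 26.3 TPM and Eif3l at 24.6 TPM were lowest. Many neighbours in this order differ by less than the spread between the libraries, such as Eif3k and Eif3f, whose SDs were 4.60 and 9.84 TPM.

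Subunit J has 2 genes, Eif3j1 on chromosome 2 and Eif3j2 on chromosome 18. Their coding sequences were identical at 99.2% of positions with a shared run of 784 bases, and 84.0% of the 100-base windows of the Eif3j2 transcript also occur in Eif3j1. The estimates were 62.6 and 48.8 TPM for Eif3j2 and 19.6 and 15.6 TPM for Eif3j1. Their split is therefore uncertain, and their sum was 82.3 and 64.4 TPM.

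The cap-binding complex eIF4F joins eIF4E, which holds the cap, the scaffold eIF4G and the helicase eIF4A. Eif4g2, which encodes the scaffold-like protein DAP5 that lacks the eIF4E binding site, was the most abundant of this role at 384 and 335 TPM. Eif4g1, the main scaffold, stood at 197 and 186 TPM and its paralog Eif4g3 at 70.7 and 50.5 TPM. Eif4g2 took 58.9% and 58.6% of the 3 genes' TPM. Of the pair that binds eIF4E, Eif4g1 took 73.6% and 78.7%, with Eif4g3 lower in replicate 2 (log2 ratio -0.37) and Eif4g1 close to 0 (0.04, or -0.18 with spike-in scaling).

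The cap-binding protein gene Eif4e stood at 48.7 and 52.2 TPM. Eif4e2, a cap-binding homolog tied to repression, was at 25.5 and 21.7 TPM, and Eif4e3 at 14.3 and 12.5 TPM. Eif4e1b, the germ cell form, had 0 counts in both libraries, which allows up to 0.0776 and 0.0686 CPM, the level of 3 counts. Eif4e was 1 of 3 members above 0 under all 5 scalings, with a log2 ratio of 0.22 (0.13 to 0.32) that was 0.00 with spike-in totals; the others were Eef1a2 and Eif2ak2.

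The helicase eIF4A comes from Eif4a1 and Eif4a2, while Eif4a3 serves the exon junction complex. Eif4a2 stood at 232 and 182 TPM, Eif4a1 at 48.2 and 30.5 TPM and Eif4a3 at 24.7 and 14.1 TPM. Eif4a2 took 82.8% and 85.7% of the Eif4a1 and Eif4a2 pair, a mean of 84.2% ± 2.02 (SD, n = 2). The lead of Eif4a2 held with kallisto and with protein_coding transcripts of RSEM alone, but its size did not. The mean share was 71.2% by kallisto, which put Eif4a1 at 144 and 95.2 TPM, and 74.5% over protein_coding transcripts of RSEM. By kallisto, protein_coding transcripts took only 23.3% and 19.6% of Eif4a1 TPM, against 66.0% and 52.0% of Eif4a2 TPM. A kallisto share over protein_coding transcripts alone was not computed.

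Coding sequences of Eif4a1 (chr11:69666936-69672423, minus strand, mm10) and Eif4a2 (chr16:23107444-23114136, plus strand, mm10) were identical at 77.8% of 1227 aligned positions, with no shared run above 20 bases. The first 120 aligned bases without a gap are shown, from coding base 37 of Eif4a1 and 43 of Eif4a2, to set the distance between the pair beside the closeness of Eif4a1 to its pseudogene; capitals mark the 24 differing positions.
Eif4a1: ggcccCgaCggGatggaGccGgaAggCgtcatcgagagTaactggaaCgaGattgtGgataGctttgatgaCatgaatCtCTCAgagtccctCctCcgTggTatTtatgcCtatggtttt
Eif4a2: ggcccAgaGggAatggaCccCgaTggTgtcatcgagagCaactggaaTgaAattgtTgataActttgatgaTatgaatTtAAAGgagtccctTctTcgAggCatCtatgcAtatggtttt
The differences recur along this stretch too. Eif4a1 and the processed pseudogene Eif4a-ps4, by contrast, share 60.8% of the 100-base windows of the Eif4a1 transcript, and the pseudogene was given 532 and 473 expected counts beside 2122 and 1498 for Eif4a1. The log2 ratio of Eif4a1 was -0.53 (-0.63 to -0.44) by RSEM and -0.54 by kallisto, so its difference between libraries was similar by both tools while its level was not.

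The helicase cofactors Eif4b and Eif4h stood at 124 and 99.6 TPM and at 41.8 and 37.2 TPM. Of the repressors that compete with eIF4G for eIF4E, Eif4ebp2 led with 75.8 and 64.6 TPM, followed by Eif4ebp1, the best known target of mTORC1, at 35.8 and 24.7 TPM. Eif4enif1, which carries eIF4E to the nucleus and to RNA granules, was at 15.3 and 14.4 TPM. Summed over the 3 binding protein genes, the repressors stood at 2.35 and 1.73 times Eif4e, and at 1.69 and 1.26 times by kallisto. The ratio was lower in replicate 2, where Eif4ebp1 was lower and Eif4e higher. These sums count all transcripts, while protein_coding transcripts of Eif4ebp1 alone stood at 9.83 and 7.45 TPM by RSEM.

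Eif4ebp3 on chromosome 18 was the only member at least 2-fold apart. It had 54.0 and 19.7 expected counts, or 2.89 and 0.93 TPM, and a log2 ratio of -1.38 (-2.28 to -0.70). Of its 100-base windows, 62.8% also occur in AC115631.1, a gene that overlaps it on the same strand and had 245 and 278 expected counts. With kallisto counts its log2 ratio was -0.76, short of 2-fold, so the call depends on the tool.

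Eif5a, the factor that carries hypusine and relieves stalled ribosomes, stood at 205 and 179 TPM and took 99.9% of the pair with Eif5a2, which was at 0.29 and 0.20 TPM with 42 and 32 counts. Their coding sequences were identical at 72.7% of positions. Eif6, which keeps the large subunit from joining too early, stood at 23.8 and 19.9 TPM.

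Across all roles the members differed little between the libraries. Of 64 members with at least 50 counts in all, 0 were at least 2-fold higher in replicate 2 and 1 was at least 2-fold lower, where 2.70% and 1.94% of 12969 genes passed; 4.64% passed in either direction. Within 1.5-fold lay 61 of the 64 (95.3%), against 86.3% of all genes. The 2-fold and 1.5-fold shares are not matched on abundance, and the members are more abundant than most genes. When 500 counts in all were required, 2.47% of 7870 genes and 0 of 57 members were at least 2-fold apart. The 1.5-fold shares were not computed at that minimum. The median log2 ratio of the members was -0.09, with quartiles of -0.18 and 0.01, against -0.00 over all genes, and 47 of 64 (73.4%) were below 0, where 50.2% of all genes were. The shift was spread over the roles: 12 of 14 eIF3 genes, 9 of 11 genes of cap binding and helicase and both genes of eEF2 and its kinase were below 0, while 3 of 6 eEF1 genes and 1 of 4 eIF2 kinase genes were.

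The counting interval lay wholly below 1-fold in 31 members and wholly above in 8, where 22.3% and 24.1% of all genes did so. The 8 were Eef1a2, Eef1g, Eef1d, Eif3h, Eif4e, Eif4g1, Eif2ak2 and Eef1akmt1. These intervals narrow with depth, and the members are more abundant than most genes, so the shares are not matched on counts. After Eif4ebp3, the lowest log2 ratios were those of Eef1akmt4 (-0.62), Eif4a1 (-0.53), Eef1akmt2 (-0.53), Eif2b2 (-0.42) and Eif5a2 (-0.40). After Eif2ak2, the highest were those of Eef1a2 (0.27), Eif4e (0.22), Eef1akmt1 (0.19) and Eif2ak3 (0.17). For Eef1akmt1 the sign turned to -0.03 with spike-in totals, and the interval of Eif2ak3 (145 and 167 counts) included 0.

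The scaling moves all genes together. With spike-in totals the median over all genes was -0.22 and that of the members -0.31, and with gene totals alone -0.15 and -0.24, so that the members' median lay below that of all genes under both. Over 5 scalings 47 members were below 0 throughout, 3 were above 0 throughout and 14 changed sign.

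**Figure D2:**
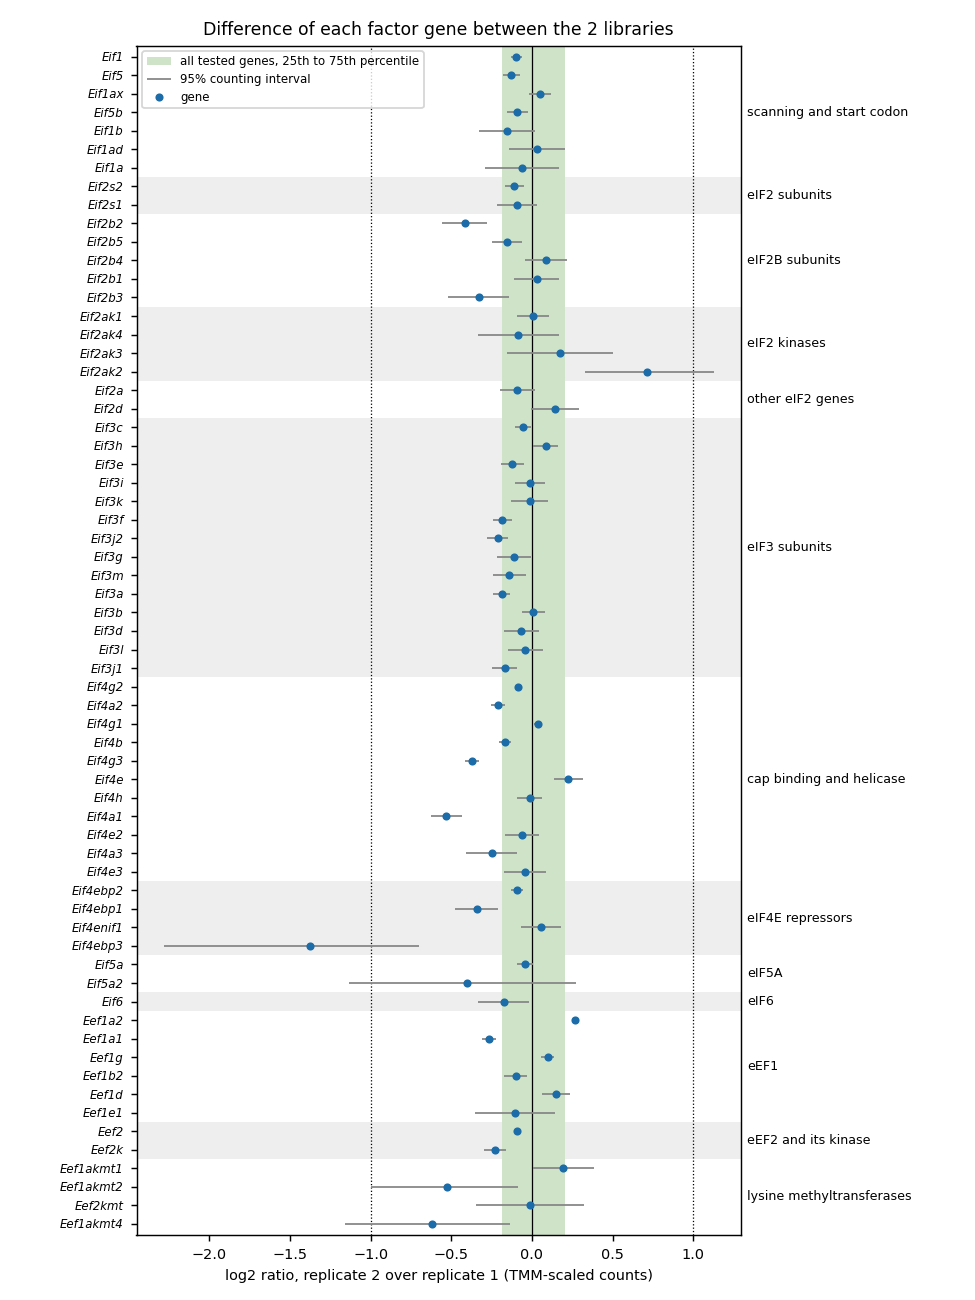
log2 ratio of replicate 2 over replicate 1 (TMM-scaled counts) for the 64 tested factor genes, by role; lines are 95% counting intervals, the green band spans the 25th to 75th percentile of all tested genes and dotted lines mark 2-fold. Eif4ebp3 alone lies past a dotted line, and 47 of the 64 points lie left of 0.

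Transcript composition was examined in the 55 members with a mean of at least 5 TPM. In 10 of them (18.2%) no transcript reached 50% of the gene's TPM by RSEM, where 23.8% of 6624 genes of at least 5 TPM had none, and in 17 (30.9%) by kallisto, where 30.6% had none. Both tools found none in Eif4a2, Eif4g1, Eif4e2, Eif4enif1, Eif2b4, Eef1d and Eef2k. In Eef1d, for example, the leading transcript took 32.0% by RSEM (Eef1d-213) and 49.1% by kallisto (Eef1d-217). RSEM alone added Eif5, Eif2b2 and Eef1e1, whose leading transcripts took 26.1%, 48.2% and 45.8%. At the other end, 21 members had a transcript of 90% or more by RSEM, where 28.3% of genes had one, and 23 by kallisto, where 22.4% had one. eIF3 made up much of that group: 12 of its 14 genes by RSEM and 8 by kallisto. Eef1a2, with its only annotated transcript, was another.

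Transcripts annotated as retained_intron or nonsense_mediated_decay, which are not expected to give the full protein, reached 20% in 9 members by RSEM (16.4%), where 16.9% of genes did so, and in 7 by kallisto (12.7%), where 20.8% did. Only Eif4a2, Eif5b and Eef1b2 were in both counts. In Eif4a2, RSEM gave 42.5% and 41.6% to Eif4a2-210, a nonsense_mediated_decay transcript, while kallisto gave it 7.24% and 4.83% and gave 50.9% and 44.6% to the protein_coding Eif4a2-201. In Eef1b2, nonsense_mediated_decay transcripts took 37.0% and 40.6% by RSEM and 57.9% and 53.6% by kallisto. In Eif5b, retained_intron transcripts took 41.3% and 34.8% by RSEM and 77.9% and 73.5% by kallisto. RSEM alone put Eif1ax, Eif2b2, Eif2a, Eif5, Eif4enif1 and Eef1e1 past 20%, and kallisto alone Eif2b1, Eif3g, Eif4g1 and Eif4a1. Eif1ax shows the extent of the disagreement: its retained_intron transcript Eif1ax-202 took 48.3% and 49.0% by RSEM and 0 by kallisto.

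The leading transcript was not protein_coding in 3 members by RSEM, where 6.61% of genes were alike, and in 4 by kallisto, where 8.89% were. Eif4ebp1 was in both counts: the processed_transcript Eif4ebp1-202, a class with no annotated reading frame, took 72.5% and 69.8% by RSEM and 85.1% and 82.9% by kallisto. The protein_coding Eif4ebp1-201 was thus left with 9.83 TPM of 35.8 TPM in replicate 1. In Eif1, the processed_transcript Eif1-202 took 51.3% of TPM in replicate 1 by RSEM and 34.1% by kallisto, so the protein_coding level of Eif1 was 348 and 286 TPM by RSEM. In all 55 members the leading transcript by RSEM was the same in both libraries, and in 43 (78.2%) it was the same by both tools, where 76.6% of genes had the same.

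**Figure D3:**
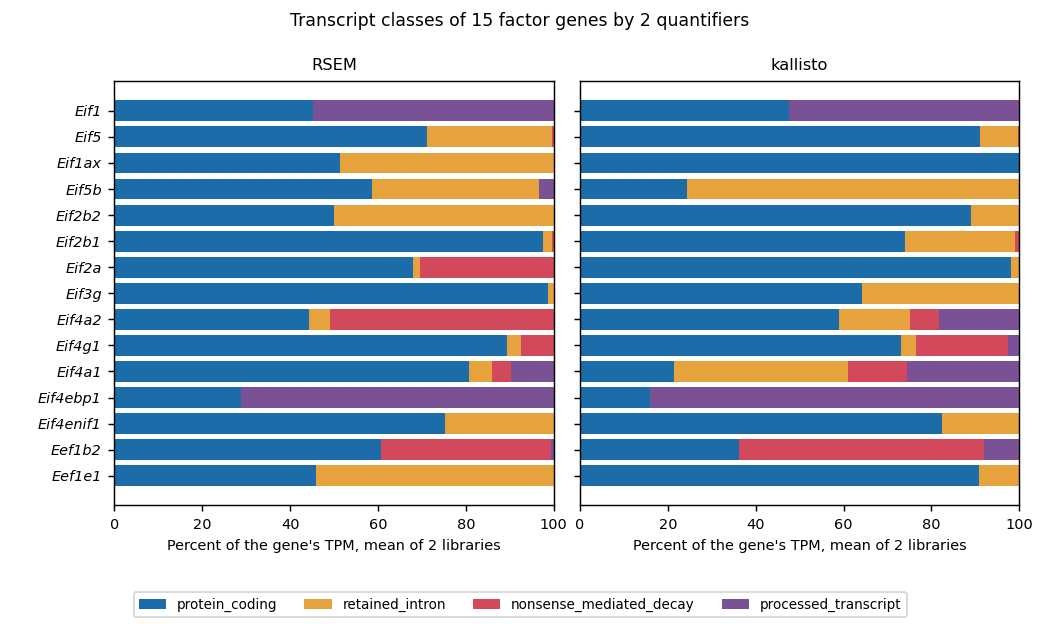
Percent of a gene's TPM in each annotated transcript class, mean of the 2 libraries, by RSEM (left) and kallisto (right), for the 15 factor genes with at least 20% in retained_intron and nonsense_mediated_decay transcripts or a leading transcript that is not protein_coding by either tool. Eif4ebp1 has most of its TPM in processed_transcript by both tools, while Eif1ax, Eif2a and Eif4a1 change their make-up between tools.

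Levels by the quantifiers differed by a common factor. Among genes of at least 5 TPM, kallisto TPM was 1.40 times RSEM TPM in the median of the 55 members, and 1.34 times in the median of 6624 protein-coding genes. In 3 of these 55 members kallisto was at least 2 times RSEM: Eif4a1 (3.04), Eif2b1 (2.81) and Eif5b (2.01). That is 5.45% of the 55, as against 5.42% of the 6624 genes. Of the members under 5 TPM, Eif4ebp3 (2.98) and Eef1akmt3 (6.17, with 1 count in each library) were also past 2. In 4 of the 55, Eif1ax, Eef1e1, Eif2s1 and Eif2b2, kallisto was below RSEM. Shared sequence was searched in 1 protein_coding transcript per gene. By that search, 43 of the 66 members share no 100-base window with any other gene. At least 10% is shared by 12 and at least 50% by 3, namely Eif3j2, Eif4ebp3 and Eif4a1. Kallisto was 1.22, 2.98 and 3.04 times RSEM in these, so the largest share went with a factor below the median. Eif2b1 and Eif5b are among the 43, but much of their kallisto TPM lay in transcripts that were not searched. These were Eif2b1-202 with 42.7%, and the retained_intron transcripts of Eif5b with 77.9% and 73.5%. The part of shared sequence in the tool differences was not tested.

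**Figure D4:**
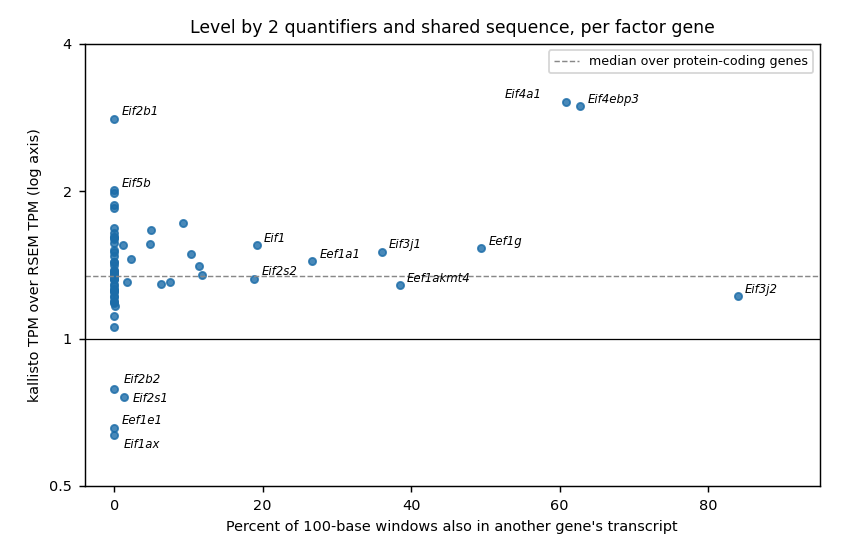
Kallisto TPM over RSEM TPM (log axis, mean of the 2 libraries) against the percent of 100-base windows of a gene's transcript that also occur in another gene, for 64 factor genes; Eif4e1b and Eef1akmt3, with 0 and 1 counts, are left out. The dashed line is the median over protein-coding genes, 1.34. Eif4a1 and Eif4ebp3 lie high on both axes, while the 1 searched transcript of Eif2b1 shares no window. Eif3j2, with the largest share (84.0%), lies below the dashed line at 1.22.

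Promoters of 50 of the 66 members matched the RefSeq table (GRCm38.p6), and the 250 bases before each start were searched on both strands. GGGCGG, the core word of GC boxes, occurred in 35 of the 50 (70%), in 32.9% of all 27025 promoters and in 61.3% of 7909 promoters of genes detected in both libraries. TATAAA occurred in 4 members (8%), in 13.0% of all promoters and 6.11% of detected ones. CCAAT occurred in 14 members (28%), against 34.5% and 36.7%. CANNTG, the E-box word, occurred in 23 members (46%), against 66.0% of all promoters and 56.2% of detected ones. The members' share was closer to that of detected genes than to that of all genes for 3 of the words, the exception being CCAAT. For CCAAT and for CANNTG it was below both. Both eEF1A promoters held GGGCGG or its reverse complement, in 2 places for Eef1a1 and 1 for Eef1a2, and neither held any of the other words.

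Genes around the factors were described from lists, with ratios under TMM scaling only. Over all tested genes 50.2% were below 0 under that scaling. Of 7 genes of release, recycling and reinitiation, 6 were detected and all 6 were below 0 in log2 ratio, with a median of -0.14. They were led by the release factor genes Etf1 (43.8 and 37.0 TPM) and Gspt1 (30.1 and 26.6 TPM). The 85 cytosolic ribosomal protein genes with enough counts had a median of -0.08, 72 of them below 0 and 0 at 2-fold in either direction; the members' median was -0.09.

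All 17 genes of the path from mTORC1 to translation were detected, with a median log2 ratio of 0.05. Mknk2, a kinase of eIF4E, stood at 137 and 107 TPM, and Akt1s1, an mTORC1 subunit, at 66.0 and 63.0 TPM. The single member at 2-fold was Ddit4, which encodes an inhibitor of mTORC1: it stood at 6.40 TPM in replicate 1 and 88.6 TPM in replicate 2, 15.4-fold higher (13.7 to 17.3). Of the members that act in the same path, Eif4ebp1, Eif4ebp2 and Eef2k differed by less than 1.5-fold, while Eif4ebp3, at few counts, was lower in replicate 2 with a log2 ratio of -1.38 (-0.76 by kallisto).

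Of 15 matched genes of the integrated stress response, which follows eIF2 phosphorylation, 11 were detected. Of the 14 with enough counts, 9 were below 0 and 5 above, with a median of -0.16, where 50.2% of all genes were below 0. Atf4, its main transcription factor, stood at 83.9 and 61.6 TPM, Chac1 at 32.9 and 22.2 TPM and Atf5 at 25.7 and 27.3 TPM. None was 2-fold apart. Among the eIF2 kinase genes, the log2 ratios were 0.71 for Eif2ak2, 0.17 for Eif2ak3, 0.01 for Eif2ak1 and -0.08 for Eif2ak4. The signs of Eif2ak1 and Eif2ak3 depend on the scaling.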

How the data were processed

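The 2 libraries of 1 group were described, so no test between groups was made. Expected counts of genes and TPM of genes and transcripts were deposited by the authors with RSEM column names, per the file headers; the estimated counts and TPM of kallisto were deposited beside them and summed per gene here. Deposited FPKM values, the deposited percent of TPM per transcript (IsoPct), and the deposited interval bounds, treated as a score, were not used for printed values. The build was mm10 with GENCODE M21 annotation, per the notes deposited with each library; for aligner and quantifier versions, nothing is given in the sources used here. Spike-in rows held 164563 and 195983 of 38819119 and 43918877 expected counts and stayed out of gene totals. Expected counts were rounded. In R 4.3.3, edgeR 4.0.16 gave TMM factors and log2 CPM with a prior count of 2, over genes whose counts summed to 50 or more. The 95% counting intervals of a fold are exact binomial intervals given the summed count; reads carry no molecular identifiers, so they cover counting error only. DESeq2 1.42.0 size factors, spike-in totals, other filters, prior counts and TPM minimums were alternatives. The 2-fold rule was tested on simulated data. Shared sequence was counted as 31-base and 100-base words of 1 transcript per gene, and coding sequences were aligned with Biopython 1.88. Other steps used scipy 1.17.1 and pandas 2.3.3 in Python 3.11.15.

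The members and lists were chosen with earlier results of these data known. Values are given for the top 3 of each role by mean TPM, all members of paralog sets, members at least 2-fold apart and the 5 farthest each way, members under 1 TPM, and members without a major transcript or with at least 20% in retained_intron or nonsense_mediated_decay transcripts; other members are given for completeness.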

Additional observations from a re-analysis of the deposited data

How the results depend on the processing

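The share of Eif4a2 in the Eif4a1 and Eif4a2 pair, 84.2%, was 71.2% by kallisto over all transcripts and 74.5% over protein_coding transcripts of RSEM only. The count of members at least 2-fold apart, 1, was 0 with a summed count of at least 500, which leaves Eif4ebp3 out, 0 with kallisto counts and, in a setting chosen after seeing the data, 0 without genes that share at least 10% of their 100-base windows. The members' median log2 ratio, -0.09, was -0.31 with spike-in totals, -0.24 with gene totals and, also chosen after seeing the data, -0.24 as a ratio of TPM; the medians over all genes were -0.22, -0.15 and -0.15. The count of members without a major transcript, 10, was 17 by kallisto, 20 with a 60% threshold and 5 with a 40% threshold. In the remaining 37 values, which include every value for the summed level, the Eef1a2 share and the number detected, the result was called unmoved. The summed level and the shares moved by less than the SD, and counts by less than 1.5 times. For the median log2 ratio the limit was a fixed difference with the sign kept. With 1 library left out, the summed level was 1.14 to 1.25%, the Eef1a2 share 78.3 to 83.2%, the Eif4a2 share 82.8 to 85.7%, the members detected 62 to 62 and those without a major transcript 10 to 11. Leaving out 1 of 2 libraries always moves a mean by less than the SD. For the summed level and the shares those values therefore could not fail their limit. Ratios between libraries have no value with 1 library left out. No paired analysis was possible because the samples form 1 group. With 2 libraries, counting intervals say nothing of how far other animals would differ, and counts below about 100 per library (Eif4ebp3, Eif5a2, Eef1akmt4) leave wide intervals.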

Other observations

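Genes that modify the factors or serve other translation systems were also read from lists. The 9 genes that make hypusine on eIF5A and diphthamide on eEF2 were all detected, with a median log2 ratio of 0.04 and 0 at 2-fold. Dph3, of the diphthamide path, stood at 48.9 and 55.9 TPM, and the hypusine enzymes Dohh and Dhps at 20.1 and 18.0 TPM and at 14.1 and 13.8 TPM, against 205 and 179 TPM for their substrate gene Eif5a.

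The list of selenocysteine and mitochondrial translation factors lay on the other side of 0. Of its 8 genes, 7 were above 0 in log2 ratio, with a median of 0.30, while 50.2% of all genes were below 0. These ratios use TMM scaling only. With spike-in totals the median over all genes was -0.22, and the list was not recomputed under that scaling. Tufm, the mitochondrial elongation factor that corresponds to eEF1A, stood at 43.1 and 51.5 TPM, and Gfm1, the mitochondrial translocase, at 39.5 and 46.0 TPM. The 8 slow fibre markers, summed to 451 and 2426 TPM, moved the same way, and their part in the difference was not tested.

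The 9 genes of poly(A) binding and its regulation had a median of 0.00. Pabpc4 led with 137 and 134 TPM, ahead of Paip2, an inhibitor of poly(A) binding protein, at 75.9 and 73.2 TPM. Pabpc1, the form of most cells, stood at 51.2 and 41.1 TPM.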
